A study of Homo sapiens with 12 samples.

Results

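Transcript levels of 10 genes that carry negative feedback on the kinase ERK, or that ERK signalling induces, were followed in K562 cells treated with imatinib, MLN4924 or both. They comprised the phosphatase genes DUSP4, DUSP5 and DUSP6, the Sprouty genes SPRY2 and SPRY4, the SPRED genes SPRED1 and SPRED2, the ETS factor genes ETV4 and ETV5, and PHLDA1. They were taken by gene name from a table of 61541 Ensembl genes, and each of the 10 names was found. Imatinib lowered 7 of the 8 genes that could be tested, to shares of the control mean between 8.55% (SPRY4) and 58.7% (SPRED2). Of all genes tested, 27.5% fell. The same 7 genes were higher with imatinib + MLN4924 than with imatinib, where 22.6% of all genes tested were higher. Both comparisons use the same imatinib libraries. MLN4924 without imatinib raised DUSP5 and SPRY4, where 7.36% of all genes tested rose. Both calls were lost when control replicate 2 was left out. PHLDA1 was also higher, but it could be tested only because of its MLN4924 libraries.

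In chronic myeloid leukemia, the fusion kinase BCR::ABL1 activates RAS, which acts through RAF and MEK on ERK. Active ERK induces genes whose products restrain it: DUSP4, DUSP5 and DUSP6 encode dual-specificity phosphatases that remove phosphate from ERK, and Sprouty and SPRED proteins act upstream, at the steps from receptors or RAS to RAF. ETV4 and ETV5 belong to the PEA3 subfamily of ETS transcription factors, which raise transcription of growth genes downstream of ERK. As general background, this set of genes is often read as an output of the pathway, because transcript levels follow ERK activity within hours.

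K562 is a line of erythroid and megakaryocytic character from a patient with chronic myeloid leukemia, and it carries BCR::ABL1. Cells of this line received imatinib + MLN4924 (0.5 µM and 25 µM), imatinib (0.5 µM), MLN4924 (25 µM) or neither drug (control), and RNA was taken after 12 h from 3 libraries per group, 12 in all. Imatinib blocks the ABL1 kinase, and MLN4924 blocks the enzyme that activates the ubiquitin-like protein NEDD8. All groups share 1 cell line, no source states that libraries came from separate cultures, and the p-values therefore reflect differences among these libraries, which may be technical.

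Levels are TPM, a transcript abundance scaled to transcript length and to the library total, so that levels of different genes can be set side by side. Depth of the libraries is unknown, and the 10 most abundant genes took 14.4% to 15.7% of the TPM with imatinib + MLN4924, 18.1% to 19.7% with imatinib, 12.7% to 13.3% with MLN4924 and 12.3% to 13.1% in control. All 12 markers of K562 cells, globin genes among them, passed the minimum for testing, with summed levels of 16574 to 23417 TPM with imatinib + MLN4924, 42644 to 57927 TPM with imatinib, 14092 to 16333 TPM with MLN4924 and 15880 to 16450 TPM in control. Of 16 markers of epithelial, fibroblast, lymphoid and other myeloid cells, 7 passed and MS4A1 and ELANE were at 0 in every group. Their summed level was 617.5 to 774.5 TPM with imatinib + MLN4924, 545 to 601 TPM with imatinib, 999 to 1206 TPM with MLN4924 and 773.5 to 935 TPM in control, at least 87.8% of it from the keratin genes KRT8, KRT18 and KRT19. In RNA from whole cultures, fewer cells that express a gene and less RNA of it per cell cannot be told apart.

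Promoters were examined because imatinib had the lowest mean of the 4 groups for all 10 genes. Whether the genes share a promoter basis was not tested. RefSeq promoter windows on GRCh38.p14 were matched for 6 of the 10 genes (DUSP6, SPRY2, SPRY4, SPRED1, SPRED2 and PHLDA1), and the 250 bases before the start were searched on both strands. The windows of SPRY2, SPRED1 and PHLDA1 are shown over 150 bases up to the start, since these hold no annotated exon. Capitals mark matches to CCGGAA, the core that ETS factors bind, or to its reverse complement TTCCGG.
SPRY2 (chr13:80341127-80341276, minus strand): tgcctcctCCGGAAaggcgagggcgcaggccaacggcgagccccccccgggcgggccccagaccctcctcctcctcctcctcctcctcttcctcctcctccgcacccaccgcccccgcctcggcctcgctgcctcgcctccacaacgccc
SPRED1 (chr15:38252686-38252835, plus strand): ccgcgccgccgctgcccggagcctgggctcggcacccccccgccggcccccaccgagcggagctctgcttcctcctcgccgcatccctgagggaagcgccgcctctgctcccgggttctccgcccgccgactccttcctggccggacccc
PHLDA1 (chr12:76031777-76031926, minus strand): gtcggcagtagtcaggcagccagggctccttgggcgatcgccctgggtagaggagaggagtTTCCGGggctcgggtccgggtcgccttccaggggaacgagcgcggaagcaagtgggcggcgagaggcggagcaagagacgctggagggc

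Counted back from the start, the ETS core stood at positions -142 to -137 in SPRY2 and at -89 to -84 in PHLDA1. It was present in 2 of the 6 windows and in 14.5% of 35116 promoters of the same length. GGGCGG, the GC box, was present in 4 of the 6 (SPRY2, SPRY4, SPRED1 and PHLDA1) and in 42.6% of all promoters. TGACG, a part of the cyclic AMP response element, was found in SPRY2 and SPRY4 and in 21.2% of promoters, while its full form TGACGTCA, which contains it, was in none of the 6 and in 1.65% of promoters. The core of the antioxidant response element, TGACNNNGC, was found in SPRY4, at positions -228 to -220, and in 10.9% of promoters. No window held TGANTCA (AP-1, in 6.57% of promoters), TTCNNNGAA (STAT, 6.57%), TATAAA (10.7%), the CArG box of serum response factor (1.16%) or the motifs TGAATGAA, TGAATGGA and TCAATGAA of the repressor CIC (2.77%). GC content over the 150 bases was 76.0% in SPRY2, 78.7% in SPRED1 and 69.3% in PHLDA1, against a median of 60.0% over all promoters. A match is a match of letters in the window, not a bound site.

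ETV4 (ENSG00000175832, chromosome 17 from 43527844 to 43579620) had the highest mean of the 10 genes in 3 of the 4 groups, all but imatinib, where SPRED2 was higher. With imatinib it stood at 4.28, 4.26 and 12.9 TPM, against 44.6, 48.5 and 51.6 TPM in control. With imatinib + MLN4924 it stood at 26.6, 21.6 and 39.4 TPM, against 58.5, 53.8 and 53.25 TPM with MLN4924. Every imatinib library lay under every library of the other 3 groups, and each imatinib + MLN4924 library lay under each control and each MLN4924 library. ETV5 (ENSG00000244405, chromosome 3 from 186046314 to 186110318), its close relative, followed at a lower level: 1.36, 0.68 and 2.52 TPM with imatinib, against 10.25, 11.9 and 9.98 TPM in control. It had 6.77, 6.85 and 11.03 TPM with imatinib + MLN4924, against 11.3, 13.1 and 11.5 TPM with MLN4924. Replicate 3 of imatinib + MLN4924 for ETV5 lay among the control libraries, and its other 2 lay under them. ETV4 shares its locus with DHX8 on the other strand, at group means of 19.8 to 22.9 TPM, and ETV5 with ETV5-AS1 on the other strand and DGKG on the same strand. Whether strand was used in quantification is not given in the sources used here.

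Of the 3 phosphatase genes only DUSP5 reached 1 TPM in any library. DUSP5 (ENSG00000138166, chromosome 10 from 110497907 to 110511533), which acts on ERK in the nucleus, had 0.22, 0.15 and 0.36 TPM with imatinib, against 2.21, 1.63 and 1.79 TPM in control. It had 1.05, 1.16 and 2.5 TPM with imatinib + MLN4924, against 4.45, 3.92 and 4.24 TPM with MLN4924. Imatinib libraries were the lowest and MLN4924 libraries the highest, without overlap with any other group, and imatinib + MLN4924 overlapped control. DUSP4 (ENSG00000120875, chromosome 8 from 29333064 to 29350684), also a nuclear phosphatase, stayed under 1 TPM throughout, with 0.23, 0.43 and 0.56 TPM with imatinib + MLN4924, against 0.08, 0.03 and 0.13 TPM with imatinib. It had 0.35, 0.51 and 0.25 TPM with MLN4924, against 0.10, 0.12 and 0.07 TPM in control. Both groups with MLN4924 lay above both groups without it. DUSP6 (ENSG00000139318, chromosome 12 from 89347235 to 89352501), the cytoplasmic ERK phosphatase, was listed at 0, 0.16 and 0.07 TPM with imatinib, against 0.58, 0.07 and 0.16 TPM in control. It had 0.14, 0.23 and 0.29 TPM with imatinib + MLN4924, against 0.25, 0.56 and 0.25 TPM with MLN4924. The control libraries of DUSP6 overlapped every other group.

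SPRY4 (ENSG00000187678, chromosome 5 from 142310427 to 142326455), which inhibits signalling from receptors to RAS and RAF, spanned the widest range of the Sprouty and SPRED genes. Levels were 6.91, 6.40 and 17.1 TPM with imatinib + MLN4924, against 22.5, 24.15 and 21.9 TPM with MLN4924, and 0.31 to 1.52 TPM with imatinib, against 8.15 to 8.95 TPM in control. Replicate 3 of imatinib + MLN4924 stood above all control libraries, and the other 2 stood below them. SPRY2 (ENSG00000136158, chromosome 13 from 80335976 to 80341126), whose promoter with an ETS core is shown above, had 3.97, 3.67 and 6.07 TPM with imatinib, against 9.78, 9.61 and 10.7 TPM in control. Its levels were 7.32, 9.33 and 11.6 TPM with imatinib + MLN4924, against 12.75, 13.8 and 14.45 TPM with MLN4924. Imatinib was lowest and MLN4924 highest without overlap for SPRY2, and imatinib + MLN4924 overlapped control.

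The SPRED proteins bind the RAS GTPase-activating protein neurofibromin and bring it to the membrane. SPRED1 (ENSG00000166068, chromosome 15 from 38252836 to 38357249) had 0.79, 1.11 and 2.12 TPM with imatinib, against 3.61, 3.71 and 4.46 TPM in control. It had 3.26, 3.13 and 4.55 TPM with imatinib + MLN4924, against 4.48, 4.08 and 4.69 TPM with MLN4924. Only the imatinib libraries of SPRED1 stood apart, and the other 3 groups overlapped. SPRED2 (ENSG00000198369, chromosome 2 from 65310851 to 65432637) had 8.66, 10.6 and 12.6 TPM with imatinib, against 17.8, 18.31 and 18.27 TPM in control. It had 19.9, 18.33 and 24.2 TPM with imatinib + MLN4924, against 25.9, 22.85 and 21.8 TPM with MLN4924. Here too imatinib was lowest without overlap, and MLN4924 lay above control but overlapped imatinib + MLN4924.

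PHLDA1 (ENSG00000139289, chromosome 12 from 76025447 to 76031776) encodes a protein with a pleckstrin homology-like domain that is known as an early response gene of growth factor signalling. With imatinib it had 0.07, 0.20 and 0.28 TPM, against 0.80, 0.38 and 0.30 TPM in control. With imatinib + MLN4924 it had 0.32, 0.34 and 1.13 TPM, against 4.48, 3.60 and 3.12 TPM with MLN4924. MLN4924 libraries were far above all others, and imatinib + MLN4924 overlapped control. PHLDA1-AS1 on the other strand averaged 1.17 TPM with imatinib + MLN4924, 0.21 with imatinib, 1.05 with MLN4924 and 0.023 in control, a different order of groups from that of PHLDA1. SPRY4-AS1, on the strand opposite SPRY4, averaged 1.17, 0.513, 0.953 and 0.79 TPM in the same groups.

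**Figure D1:**
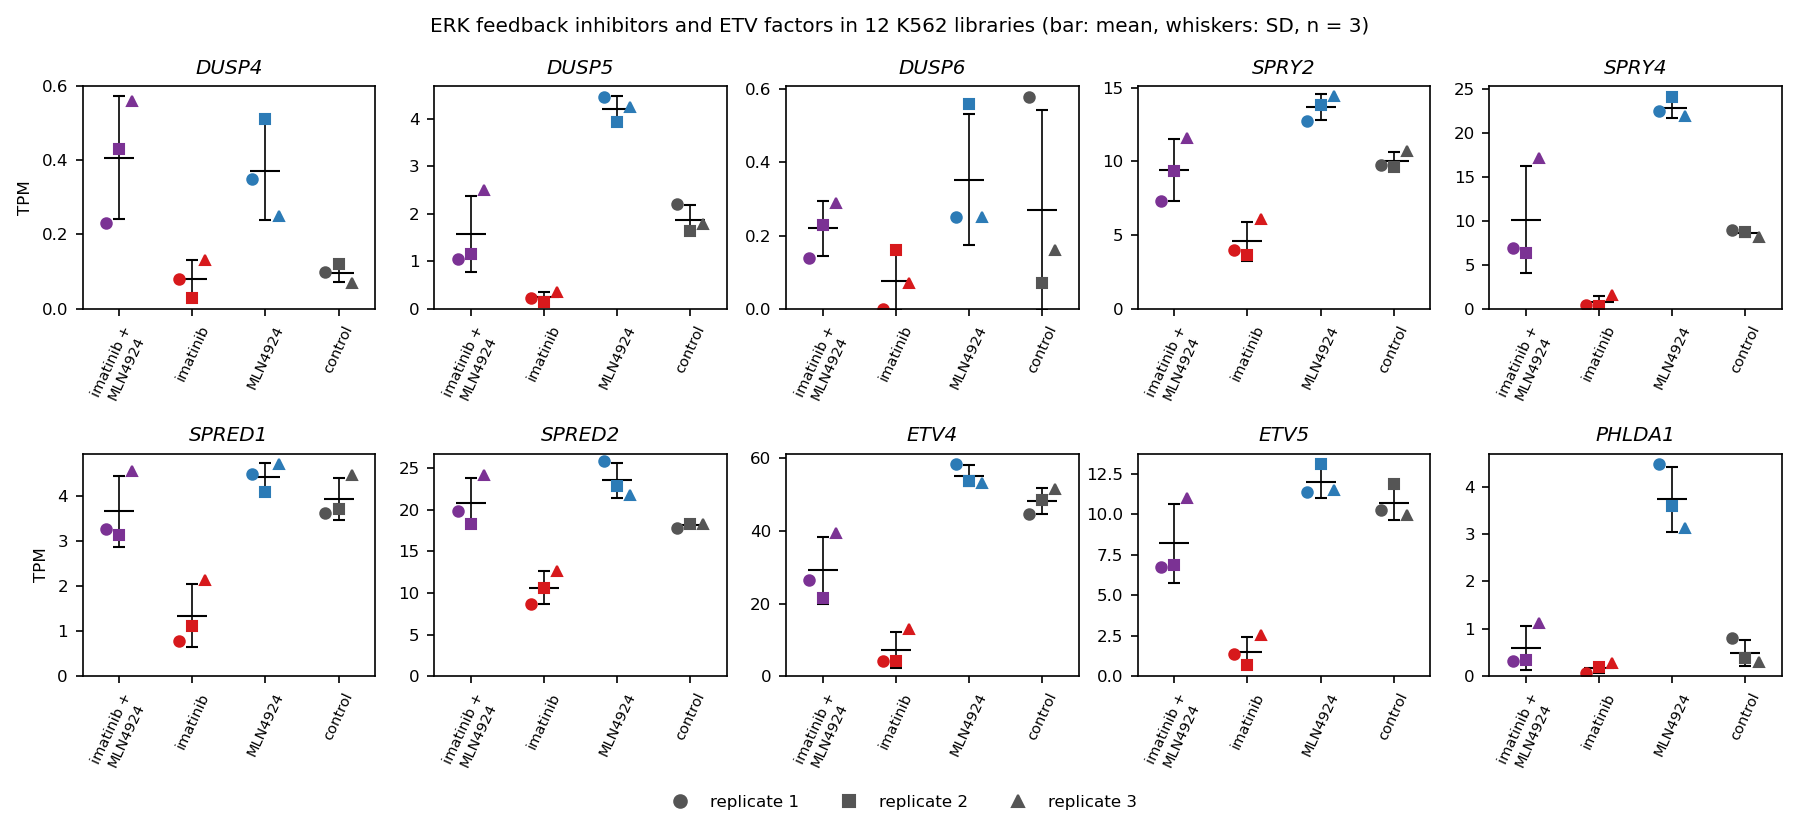
TPM of each of the 10 genes (y axis, linear from 0, own scale per panel) in each library, by group (x axis), with the mean as a bar and the SD as whiskers (n = 3). Imatinib has the lowest mean in all 10 panels, and MLN4924 the highest in 9, DUSP4 being the exception.

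By group means, imatinib was lowest for all 10 genes. For 6 genes (DUSP5, DUSP6, SPRY2, SPRED1, ETV4 and ETV5) the order was MLN4924, control, imatinib + MLN4924 and imatinib, from high to low. SPRY4, SPRED2 and PHLDA1 had imatinib + MLN4924 above control, and DUSP4 had imatinib + MLN4924 first. Control and imatinib + MLN4924 are neighbours in the order of 9 genes, and their libraries overlapped in 7 of the 10 genes. They did not for ETV4, where imatinib + MLN4924 was lower, nor for DUSP4 and SPRED2, where it was higher, for SPRED2 by 0.02 TPM at the nearest libraries. Of all genes tested, 41.7% did not overlap between these groups.

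Replicate 3 of imatinib and replicate 3 of imatinib + MLN4924 stood apart from the other libraries of their groups. Imatinib replicate 3 was the highest of its group for 9 of the 10 genes, against 45.4% of all 15478 genes tested, and imatinib + MLN4924 replicate 3 for 10 of the 10, against 46.3% of all genes. For ETV4, replicate 3 held 12.9 TPM where the other imatinib libraries held 4.28 and 4.26. Nothing in the labels sets these libraries apart, and the cause was not tested. They bear on every comparison with imatinib and, through the spread that the fit shares over the 4 groups, also on comparisons without them. Counts without both of them (without both replicates 3) are therefore given beside the results, as a choice made after their values were seen. Leaving out the highest library of a group lowers its mean, so a shift in that direction follows from the choice. Shares of all genes tested are not given for that fit.

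**Figure D2:**
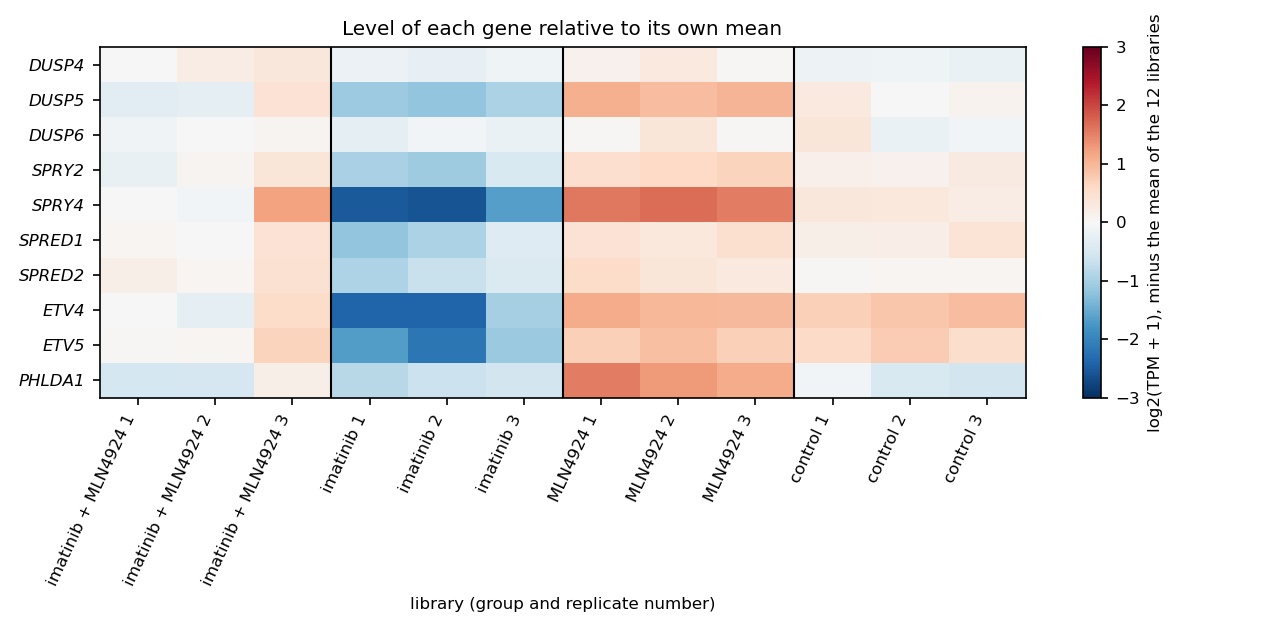
Level of each gene (rows) in each library (columns, by group and replicate) as log2(TPM + 1) minus the gene's mean over the 12 libraries. Blue imatinib columns and red MLN4924 columns hold for most rows, and column 3 of the imatinib + MLN4924 block is redder than its neighbours in every row, as is column 3 of the imatinib block in 9 of 10.

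Tests used limma on log2(TPM + 1) over all genes that reached 1 TPM in 3 or more libraries, with Benjamini-Hochberg adjusted p-values over all 15478 and a threshold of 0.05. Fold changes on this scale understate changes of genes at low level. DUSP4 and DUSP6 did not reach the minimum. PHLDA1 reached it only through the 3 MLN4924 libraries and 1 imatinib + MLN4924 library, so high levels with MLN4924 were a condition of its being tested. Its comparisons with MLN4924 and its interaction are therefore given as values with no p-value. It is left out of counts of those comparisons, except in the closing section on processing, where this is said.

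The comparison of imatinib with control asks what blocking BCR::ABL1 does to these transcripts. Of the 8 genes tested 7 fell and none rose, where 27.5% of all genes tested fell and 26.3% rose. ETV4 fell by 2.76 on the log2 scale (standard error 0.32, limma adjusted p = 3.87e-05), which left a mean of 14.8% of the control mean in TPM, or 8.85% without imatinib replicate 3. For SPRY4 the change was -2.54 (standard error 0.32, adjusted p = 6.02e-05), and its mean was 8.55% of that of control, the lowest share of the 10, or 4.0% without imatinib replicate 3. ETV5 changed by -2.28 (standard error 0.24, adjusted p = 2.1e-05), to 14.2% of control. The other inhibitor genes fell by less than SPRY4 on this scale: DUSP5 fell by 1.21, SPRED1 by 1.11, SPRY2 by 1.01 and SPRED2 by 0.73, with adjusted p-values of 3.88e-04 to 6.74e-04. In TPM the order differed: the mean of DUSP5 was 13.0% of control, a lower share than for ETV4 and ETV5, and the shares were 34.1% for SPRED1, 45.5% for SPRY2 and 58.7% for SPRED2.

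PHLDA1 did not pass (-0.32, 95% interval -0.82 to 0.17, adjusted p = 0.244), although its 3 imatinib libraries lay under its 3 control libraries. Counted over all 10, groups did not overlap for 8 genes, each lower with imatinib, where 30.3% of all genes tested had every imatinib library under every control library. DUSP4 and DUSP6 overlapped. Without both replicates 3 the count of genes that fell was again 7. The median log2 change of the 8 was -1.16, and that of all genes tested 0.02. With imatinib 9 of the 12 K562 markers rose and none fell, and the part of that change, or of the summed levels given above, in these falls was not tested. With a pseudocount of 0.1 in place of 1 the fall of DUSP5 was -2.56.

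MLN4924 alone asks what blocking neddylation does while BCR::ABL1 is active. Of the 7 genes tested other than PHLDA1, 2 rose and none fell, where 7.36% of all genes tested rose and 7.11% fell. SPRY4 rose by a log2 change of 1.31 (standard error 0.32, limma adjusted p = 0.0179), 2.65-fold in TPM, and DUSP5 by 0.86 (standard error 0.20, adjusted p = 0.0147), 2.24-fold. PHLDA1 had a log2 difference of 1.67, 7.57-fold in mean TPM, for which its selection leaves no test. Of these 7 genes, every MLN4924 library exceeded every control library for DUSP5, SPRY2, SPRY4, SPRED2 and ETV4, against 17.6% of all genes tested. SPRED1 and ETV5 overlapped. DUSP4, which was not tested, and PHLDA1, selected through its MLN4924 libraries, were also higher without overlap, and DUSP6 overlapped. The median log2 change of the 7 genes was 0.36, and that of all genes tested -0.0043.

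The remaining 5 genes tested did not pass. SPRY2 (0.41, 95% interval 0.04 to 0.79, adjusted p = 0.140) and SPRED2 (0.36, interval 0.07 to 0.64, adjusted p = 0.0983) were nearest to it, and both passed when only the 6 libraries of these groups were fitted (adjusted p = 0.0239 and 0.0291). ETV4 (0.19, interval -0.51 to 0.90), ETV5 (0.15, interval -0.38 to 0.68) and SPRED1 (0.14, interval -0.29 to 0.57) had small differences with wide intervals. Both calls depended on single libraries and on processing: SPRY4 was lost without control replicate 2 or 3 (adjusted p = 0.0517 each) or MLN4924 replicate 2 (0.0615), and DUSP5 without control replicate 2 (0.0577). SPRY4 was also lost with a pseudocount of 0.1 (0.0694), with no minimum level (0.056) and with both (0.15), and DUSP5 with both (0.106). Without both replicates 3, SPRY2 and SPRED2 passed as well (adjusted p = 0.0213 and 0.0238). Neither of those libraries is in the groups compared, so the differences were unchanged and only the spread shared by the 4 groups was affected. Over all alternatives the adjusted p of SPRY4 ran between 2.27e-05 and 0.15, and that of DUSP5 between 0.0024 and 0.106.

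Imatinib + MLN4924 against imatinib asks whether MLN4924 changes these transcripts while the kinase is blocked. Of the 8 genes tested 7 rose and none fell, where 22.6% of all genes tested rose and 20.5% fell. SPRY4 had the largest log2 difference, 2.62 (standard error 0.32, limma adjusted p = 1.21e-04), 13.8-fold in mean TPM, or 29.4-fold without imatinib replicate 3 and 9.03-fold without imatinib + MLN4924 replicate 3. ETV4 was higher by 2.01 (standard error 0.32, adjusted p = 6.20e-04) and ETV5 by 1.91 (standard error 0.24, adjusted p = 1.54e-04), 4.09-fold and 5.41-fold in TPM, with 6.84-fold for ETV4 without imatinib replicate 3. SPRED1 (1.02), DUSP5 (1.01), SPRED2 (0.91) and SPRY2 (0.91) rose with adjusted p-values of 3.33e-04 to 0.00218. PHLDA1 had a difference of 0.40 (95% interval -0.09 to 0.89, adjusted p = 0.175). The 7 calls held in every alternative that tested the gene, also without both replicates 3.

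Groups did not overlap for 9 of the 10 genes, each higher with imatinib + MLN4924, against 25.7% of all genes tested, and DUSP6 was the exception. DUSP4, tested only where no minimum was set, was 5.08-fold higher in mean TPM, at levels under 1 TPM (log2 difference 0.38, adjusted p = 0.0186). The median log2 difference of the 8 genes was 1.01, against 0.0035 over all genes tested. Of the 12 K562 markers 8 were lower, and their part was not tested. Imatinib libraries serve as the reference here and as the treated side in the comparison with control, so both sets of values share the low imatinib levels.

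**Figure D3:**
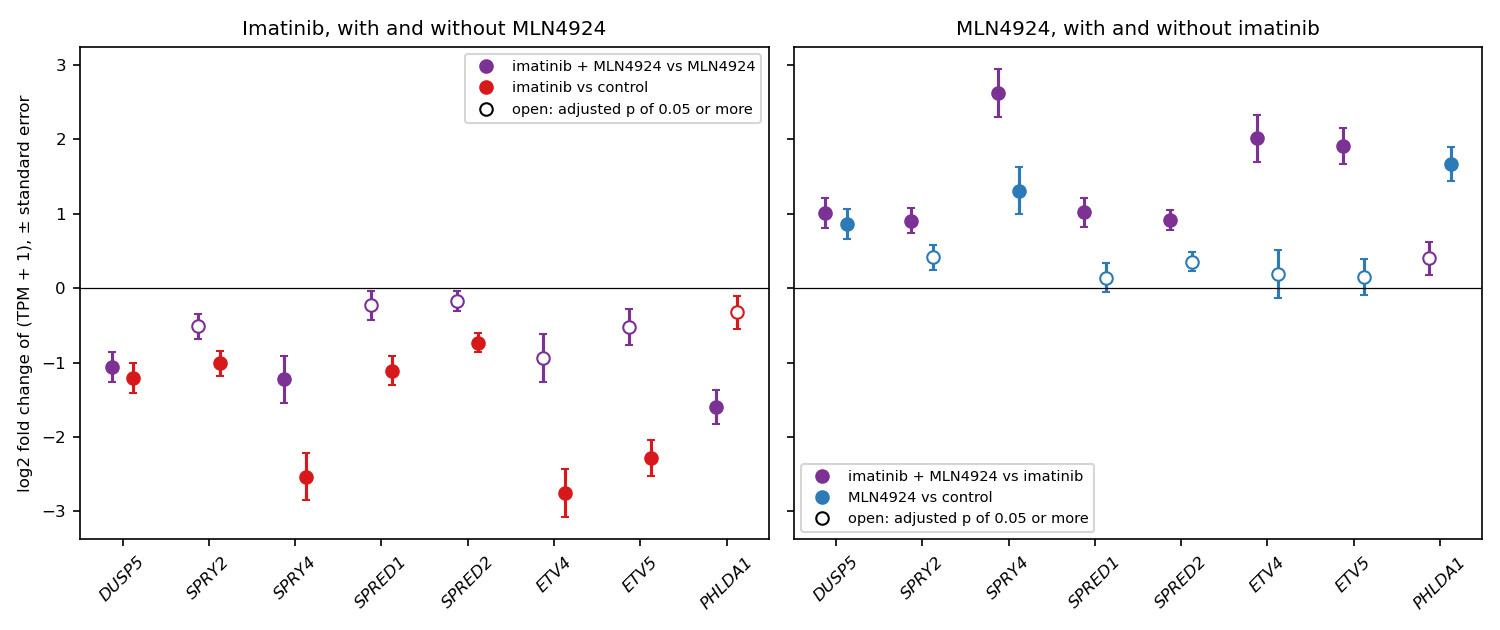
Log2 fold change of TPM + 1 (y axis) with its standard error for the 8 genes tested (x axis), for imatinib with and without MLN4924 (left) and MLN4924 with and without imatinib (right). Filled points passed an adjusted p of 0.05: 2 and 7 genes on the left and 7 and 2 on the right, other than PHLDA1. PHLDA1, selected through its MLN4924 libraries, also has a filled point in each panel, which is no independent test.

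Levels with both drugs were also set against each other reference. Against control, none of the 8 genes passed in limma and 1 of them, ETV4, had an unadjusted p under 0.05, where 12.2% of all genes tested rose and 13.9% fell. ETV4 differed by -0.75 (95% interval -1.45 to -0.04, adjusted p = 0.111), with a mean of 60.5% of that of control, and ETV5 by -0.37 (interval -0.90 to 0.16), with 76.8%. Intervals of the other 6 genes included 0: DUSP5 -0.64 to 0.24, SPRY2 -0.48 to 0.27, SPRY4 -0.61 to 0.78, SPRED1 -0.52 to 0.34, SPRED2 -0.11 to 0.47 and PHLDA1 -0.42 to 0.57. Such intervals do not show that levels are equal. Every imatinib + MLN4924 library was above control for DUSP4 and SPRED2, where 19.9% of all genes tested were, and below it for ETV4, where 21.8% were. Without both replicates 3, 4 genes passed, all lower than control: ETV4 (-0.98, adjusted p = 1.21e-04), ETV5 (-0.58, 0.0176), SPRY4 (-0.33, 0.0268) and DUSP5 (-0.45, 0.0495). Imatinib + MLN4924 replicate 3 was the highest of its group for all 10 genes, so leaving it out lowers each of these means. Leaving out imatinib replicate 3 alone was enough for ETV4 to pass (adjusted p = 0.00764, within a range of 1.21e-04 to 0.307 over its alternatives). That library is in neither group, so it left the difference of ETV4 unchanged and acted through the spread that the fit shares over the 4 groups.

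Against MLN4924, which gives the change with imatinib when neddylation is blocked, 2 of the 7 genes tested other than PHLDA1 were lower and none higher, where 8.48% of all genes tested fell and 7.73% rose. DUSP5 fell by 1.06 on the log2 scale (standard error 0.20, limma adjusted p = 0.00658) to 37.4% of the MLN4924 mean, and SPRY4 by 1.23 (standard error 0.32, adjusted p = 0.0251) to 44.4%, or 29.1% without imatinib + MLN4924 replicate 3. PHLDA1, selected through its MLN4924 libraries, had a log2 difference of -1.59 and 16.0% of the MLN4924 mean, or 8.84% without that library. ETV4 (-0.94, adjusted p = 0.0681), SPRY2 (-0.52, 0.0607) and ETV5 (-0.52, 0.163) did not pass, with 95% intervals of -1.64 to -0.23, -0.89 to -0.14 and -1.05 to 0.0041. SPRED1 (-0.23) and SPRED2 (-0.17) had the smallest differences. Of the 7 genes, every imatinib + MLN4924 library lay under every MLN4924 library for DUSP5, SPRY2, SPRY4, ETV4 and ETV5, against 19.5% of all genes tested. The libraries of PHLDA1 did not overlap either, but its MLN4924 libraries are those that selected it.

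The call for SPRY4 against MLN4924 rested on single libraries: it was lost without MLN4924 replicate 1, 2 or 3 (adjusted p = 0.0646, 0.0745 and 0.0623) and without imatinib + MLN4924 replicate 1 or 2 (0.101 and 0.102), and also with a pseudocount of 0.1 (0.0779), with no minimum level (0.0725), with both (0.163) and in a fit of the compared libraries alone (0.0537), in a range of 1.26e-05 to 0.163 over all alternatives. SPRY2 and ETV4 passed without either replicate 3 alone: without imatinib replicate 3 (adjusted p = 0.0233 and 0.00446) and without imatinib + MLN4924 replicate 3 (0.0233 and 0.0357), within ranges of 0.00295 to 0.221 for SPRY2 and 7.71e-05 to 0.222 for ETV4. Imatinib replicate 3 is in neither group, so leaving it out left these differences unchanged and acted through the spread shared by the 4 groups. Without both replicates 3, DUSP5, SPRY2, SPRY4, ETV4 and ETV5 were lower past the threshold. Here too, leaving out imatinib + MLN4924 replicate 3 lowers the means of that group.

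Whether the change with imatinib differs between cells with and without MLN4924 was tested as an interaction, the log2 change against MLN4924 minus the log2 change against control. It was positive, meaning a smaller fall with MLN4924, for ETV5 (1.75, standard error 0.34, limma adjusted p = 0.00968) and ETV4 (1.82, standard error 0.45, adjusted p = 0.0233), where 9.06% of all genes tested passed in this direction. In the negative direction 7.35% passed, and none of the 7 genes other than PHLDA1. The term of PHLDA1 was -1.27 and that at a pseudocount of 0.1 was -1.58, but it rests on the MLN4924 libraries through which this gene was selected.

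The other 5 terms were positive and did not pass. SPRED1 (0.88, 95% interval 0.27 to 1.49, adjusted p = 0.0519), SPRED2 (0.56, 0.15 to 0.96, 0.0613) and SPRY4 (1.31, 0.33 to 2.29, 0.0669) were just outside. SPRY2 followed with 0.49 (-0.03 to 1.02, 0.177), and DUSP5, with log2 changes of -1.06 with and -1.21 without MLN4924, with 0.15 (-0.47 to 0.77, 0.756). In mean TPM, DUSP5 with both drugs was at 37.4% of MLN4924, and with imatinib alone at 13.0% of control. Its term ran from -0.10 to 1.09 over all alternatives and passed in none. Without imatinib replicate 3 the terms of SPRY2, SPRY4, SPRED1 and SPRED2 passed too (adjusted p = 0.0326, 0.0162, 0.00509 and 0.0146), as did 6 positive terms without both replicates 3, and SPRY4 also without imatinib + MLN4924 replicate 2 (0.0474). ETV4 was lost without imatinib replicate 1 or 2 (0.0593 and 0.061) or imatinib + MLN4924 replicate 3 (0.0516), and with no minimum level (0.0647). SPRY4 passed with a pseudocount of 0.1 or 0.5 (0.0372 and 0.0449), SPRED1 with median-of-ratios scaling (0.0412), and SPRED2 with that scaling (0.038) or a minimum of 5 TPM (0.0469). Over all alternatives the adjusted p ran between 5.13e-04 and 0.0337 for ETV5 and between 3.82e-05 and 0.0647 for ETV4. For SPRY2, SPRY4, SPRED1 and SPRED2 the highest values were 0.35, 0.158, 0.126 and 0.13.

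Other genes of the pathway give the surroundings of these changes, in lists written with earlier results of these data known. Of all genes tested, 27.5% fell and 26.3% rose with imatinib against control. With both drugs, 22.6% rose and 20.5% fell against imatinib, and 13.9% were lower and 12.2% higher against control. With MLN4924 alone, 7.11% fell and 7.36% rose. Among paralogs of the 10 genes, 8 of 13 were tested, of which 5 fell and 1 rose with imatinib against control (62.5% and 12.5%). PHLDA2 fell most (-3.01, adjusted p = 1.62e-05), with 3.0, 3.58 and 4.92 TPM with imatinib, against 37.2, 39.3 and 35.8 TPM in control. ETV1, the remaining PEA3 factor (-1.55), the phosphatases DUSP9 (-1.17) and DUSP7 (-1.01), and SPRY1 (-0.61) fell as well, while DUSP1, a stress-induced phosphatase, rose (0.64). With imatinib + MLN4924 against imatinib, ETV1 (1.60), PHLDA2 (1.60) and DUSP7 (0.58) rose and DUSP1 fell by 0.52, while DUSP9 and SPRY1 did not pass. Against control, PHLDA2 (-1.41), DUSP9 (-1.05) and DUSP7 (-0.44) were lower with both drugs and none was higher. With MLN4924 alone SPRY1 fell by 0.69 and no paralog rose.

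Of 9 other genes that ERK induces, 8 fell with imatinib against control and KLF10 rose (0.77), beside 27.5% and 26.3% of all genes tested. Falls were largest in the early response genes EGR1 (-3.04) and FOSL1 (-2.43) and the cyclin gene CCND1 (-2.28). With imatinib + MLN4924 against imatinib 7 rose, beside 22.6% of all genes tested. Among them were EGR1 (2.43), FOSL1 (2.20) and FOS (2.1), and KLF10 fell by 0.84. Against control, MYC (-1.48), CCND1 (-1.02) and IER2 (-0.57) were lower with both drugs. MYC stood at 98.3, 98.7 and 128.5 TPM with imatinib + MLN4924, against 82.3, 78.55 and 133.25 TPM with imatinib, and these groups overlapped. With MLN4924 alone IER3 (1.27), FOS (1.24) and MAFF (0.80) rose and MYC fell by 0.71.

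ETS factors other than ETV4 and ETV5, with the repressor CIC and its partner ATXN1L, numbered 13 tested of 15. With imatinib against control ETS2 (-1.0), ELK3 (-0.90), ERF (-0.81), ELF1 (-0.45) and ELK1 (-0.35) fell and CIC rose (0.37). These were 38.5% and 7.7% of the 13, beside 27.5% and 26.3% of all genes tested. With both drugs against imatinib 6 rose (46.2%, beside 22.6% of all genes tested) and none fell. The rise was largest for ETV2 (1.06), ELK3 (0.98) and ETS2 (0.59). In the cascade itself, of 20 genes for RAS, RAF, MEK, ERK and the adaptors that join them to kinases, 6 rose and 7 fell with imatinib against control (30% and 35%), beside 26.3% and 27.5% of all genes tested. The adaptor genes GAB1 (1.25) and GAB2 (-1.12) had the largest changes of the 20, followed by the MEK gene MAP2K1 (-0.68). With both drugs against imatinib 7 rose and 2 fell (35% and 10%), beside 22.6% and 20.5% of all genes tested, with GAB2 at 0.91, GAB1 at -0.78 and HRAS at 0.54.

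Among 5 tested of 6 RAS inhibitors, NF1 (-0.60), ERRFI1, an inhibitor of EGF receptors (-0.58), and LZTR1 (-0.45) fell and RASA1 rose (0.51) with imatinib against control, and NF1 (0.35) and LZTR1 (0.29) rose with both drugs against imatinib. Of 5 tested kinases that ERK activates, RPS6KA3 fell (-0.56) and MKNK1 rose (0.25) with imatinib. With imatinib, 60% of these RAS inhibitors fell and 20% rose, and 20% of the kinases went each way. Of all genes tested, 27.5% fell and 26.3% rose. With both drugs against imatinib 40% of the RAS inhibitors rose, beside 22.6% of all genes tested. Median log2 changes with imatinib against control were -1.41 for the other ERK-induced genes, -0.81 for the paralogs, -0.45 for the RAS inhibitors, -0.13 for the ETS factors, -0.11 for the effector kinases and -0.10 for the cascade, beside -1.16 for the 8 genes above.

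**Figure D4:**
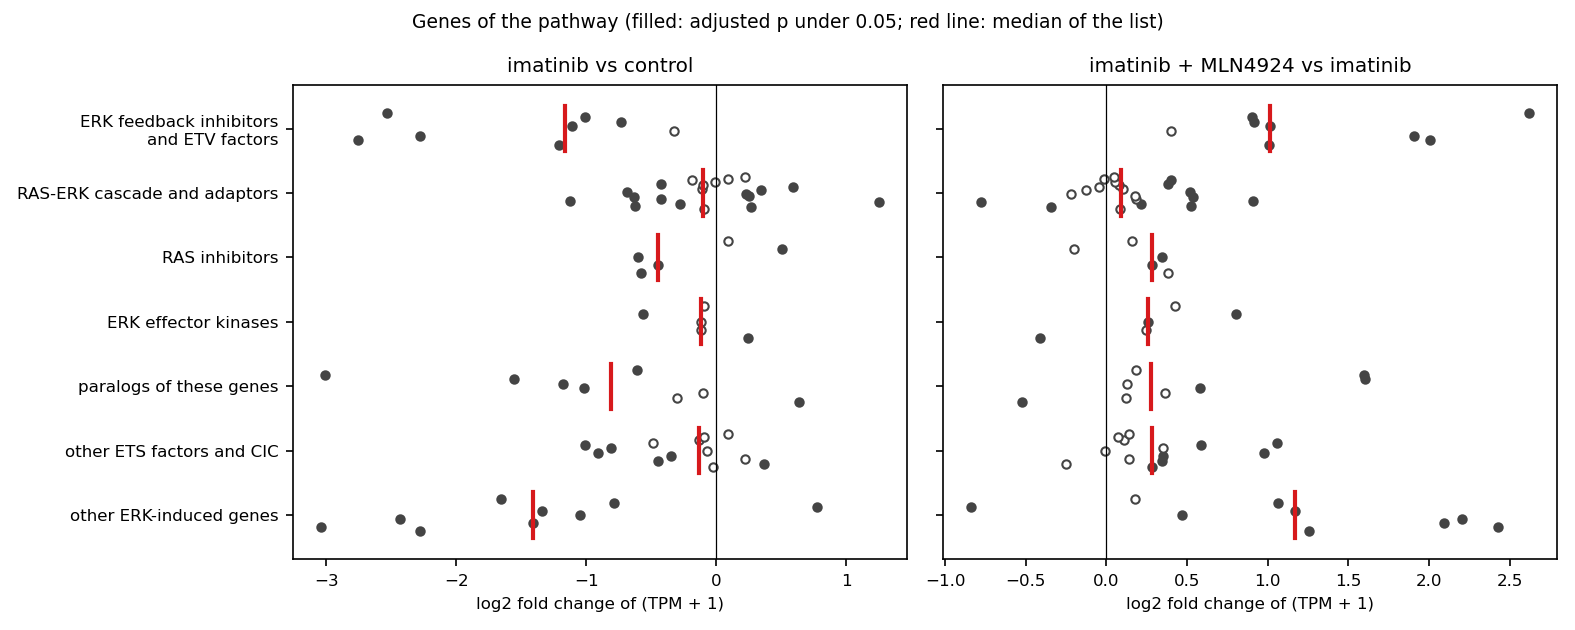
Log2 fold change of TPM + 1 (x axis) of each tested gene, by list (rows), for imatinib against control (left) and imatinib + MLN4924 against imatinib (right). Filled points passed an adjusted p of 0.05 and red lines mark medians, which on the left are lowest for the other ERK-induced genes (-1.41) and the ERK feedback inhibitors and ETV factors (-1.16). The lists were written with earlier results of these data known, so the order of their medians is no independent support.

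Outside these lists, the genes whose pattern was most like the mean profile of the 8 tested genes were TPM3 (r = 0.996), ARF3 (0.994), CEP170B (0.994), LUZP1 (0.993) and MSN (0.992). The measure was Pearson's r over 12 libraries on log2(TPM + 1), given as a description, since libraries of a group share their treatment and 9.46% of all genes tested reached 0.9. TPM3, a tropomyosin gene, averaged 434 TPM with imatinib + MLN4924, 293 with imatinib, 523 with MLN4924 and 436 in control. MSN encodes moesin, which links the membrane to actin, and averaged 299.9, 158 and 418 TPM with the 3 treatments in that order and 311 TPM in control.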

How the data were processed

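RNA of 12 K562 libraries was sequenced, 3 for each of 4 groups given by the treatment labels. Reads were trimmed with fastp, aligned to hg38 with HISAT2 and quantified with StringTie by the authors, who deposited TPM per gene, and the processing notes of the submitters also name featureCounts and GRCh38. No counts were used, the depth is unknown, and a value of 0 can be a failed estimate. The table has 62232 lines, of which 691 assembled loci were left out. All 10 names matched GENCODE release 44 by Ensembl identifier.

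The members and lists were chosen with earlier results of these data known. The study names DESeq2 without a design. limma 3.58.1 (trend) in R 4.3.3 was fitted to log2(TPM + 1) of all 12 libraries, with 1 coefficient per group, over the 15478 Ensembl genes that reached 1 TPM in 3 or more libraries, and Benjamini-Hochberg adjustment at 0.05. The script was tested on simulated data. Intervals are 95% intervals from the same fit. All 10 members are named, and of each other list up to 3 genes with the largest change past the threshold, or all where the count was 5 or fewer. Among 15478 genes, 0.969% to 1.51% of values were identical between replicates, so none is a copy. Python 3.11.15, pandas 2.3.3, numpy 2.4.6, scipy 1.17.1 and matplotlib 3.10.9 were used for the rest.

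Alternatives were other pseudocounts and filters, median-of-ratios scaling, a block for the replicate number, fits of the compared libraries alone and leaving out libraries.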

Additional observations from a re-analysis of the deposited data

Results flagged for a closer look

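The change with imatinib differed between cells with and without MLN4924 for ETV4 and ETV5, by the interaction test in limma. For ETV5 the difference was 1.75 on the log2 scale, with imatinib + MLN4924 libraries at 6.77 to 11.03 TPM and imatinib libraries at 0.68 to 2.52 TPM, and it held in all 20 alternatives that gave a value. For ETV4 it was 1.82, and it was lost in 5 of 20 alternatives. PHLDA1 had a term of the opposite sign, -1.27, which is given as a value only. This gene reached the minimum for testing through its MLN4924 libraries, at 3.12 to 4.48 TPM against 0.30 to 0.80 TPM in control, so the term is no independent test.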

How the results depend on the processing

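Counts of genes that fell with imatinib against control, and that rose with imatinib + MLN4924 against imatinib, were 7 each and stayed at 7 with each library left out and without both replicates 3. PHLDA1 is part of the counts that follow, although its passes in comparisons with MLN4924 are no independent test. With MLN4924 against control 3 rose, and 1 with a minimum of 5 TPM, 5 with the compared libraries alone or without both replicates 3, 1 with no minimum and a pseudocount of 0.1, and 1 to 3 with 1 library left out. With imatinib + MLN4924 against control 0 passed, 1 with no minimum (DUSP4, which only then was tested) or with the compared libraries alone, 4 without both replicates 3 and 0 to 1 with 1 library left out. Against MLN4924 3 were lower, 6 without both replicates 3 and 2 to 5 with 1 left out. The interaction gave 2 positive terms, 1 with no minimum (at a pseudocount of 1 or 0.1), 4 with median-of-ratios scaling, 6 without both replicates 3 and 1 to 6 with 1 left out. The minimum of 5 TPM removed DUSP5, SPRED1 and PHLDA1. Other causes were not tested.

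The replicate number did not pair the libraries: of 18 same-numbered pairs the correlation of deviations was -0.059 to 0.185, over 0.1 in 1 (imatinib and imatinib + MLN4924 replicate 3), and in 14 of 36 cases a library correlated best with its own number. With the replicate block 5 genes were lower against MLN4924 and the interaction gave 4 positive terms, and the other 4 counts did not change.

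Of 982 single values under 21 alternatives, 911 kept direction and side of the threshold, 36 passed where they had not, 27 no longer passed, and 8 changed sign, all for differences that had not passed. Against control with both drugs, PHLDA1 (0.07) was -0.15 without both replicates 3 and -0.15 to 0.22 with 1 library left out, SPRY2 (-0.10) was -0.25 to 0.047, and SPRY4 (0.09) was -0.33 without both and -0.33 to 0.32. The interaction of DUSP5 (0.15) was -0.03 without both, -0.10 to 0.29 with 1 library left out and -0.10 to 1.09 over all alternatives. Depth is unknown, so precision rests on 3 libraries per group, and values under 1 TPM, as for DUSP4 and DUSP6, carry 2 decimals only.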
